A study of Arabidopsis thaliana with 12 samples.

Results

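The leaf response to a conditionally activated MAP kinase kinase was examined in sid2, a mutant in the salicylic acid (SA) synthesis gene SID2. The 6 sid2 arrays of a series of 12 arrays were chosen by their labels: 3 from mock-treated and 3 from DEX-treated leaves, paired by replicate number. All plants, in this and in the wild-type background Col, carried the transgene DEX-MKK4DD, which encodes a constitutively active form of MKK4 under a promoter that dexamethasone (DEX) switches on. The transgene had been crossed into sid2 (allele sid2-2). Plants aged 4 weeks were grown at 22°C under light for 12 h a day. Their leaves were infiltrated with 2 µM DEX or, as mock, with 0.1% ethanol, and were collected after 24 h. The study performed 3 independent experiments. The replicate number was taken to mark the experiment, which the sample titles do not state. The other 6 arrays held the same treatments in the Col background. The values are from a time after a day of sustained induction, and no pathogen was applied. No plants lacking the transgene were analysed here, and in these arrays what DEX does by itself cannot be told apart from what the induced kinase does. For the SA marker gene PR1, the study reported, by quantitative PCR, no induction by DEX in a line with a DEX-inducible GUS reporter.

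In plant immunity, receptors at the cell surface (pattern-triggered immunity) and inside the cell (effector-triggered immunity) activate MAP kinase cascades, in which MKK4 and MKK5 phosphorylate the MAP kinases MPK3 and MPK6. In SA synthesis SID2 makes isochorismate from chorismate in the chloroplast, EDS5 exports isochorismate, PBS3 conjugates it to glutamate and EPS1 releases SA from the conjugate. SA is the main hormone of defence against biotrophic pathogens and acts through the receptor NPR1. N-hydroxypipecolate, jasmonate and ethylene, together with tryptophan-derived antimicrobials such as camalexin, form parallel branches. Growth hormones and photosynthesis are commonly lowered when defence is active.

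Levels are given as log2 intensities and changes as log2 ratios of DEX to mock in sid2, with the standard error (SE) of the fit (n = 3 arrays per group). Calls required an adjusted p under 0.01 together with a change of more than 2-fold. Median intensities were 268 to 289 in the 3 mock arrays and 255 to 260 in the 3 DEX arrays. Across loci, Pearson's r was 0.988 to 0.995 within a group and 0.890 to 0.914 between mock and DEX. None of 11 reference genes was called. Every DEX array lay above every mock array in 6 of them (32.3% of all loci), and the reverse held in none. Their changes ran from -0.05 to 0.76, with a median of 0.17. Their summed intensity was 100579 to 102966 in mock and 111737 to 118785 in DEX. Actin 2 (ACT2) had levels of 14.06, 14.11 and 14.16 in mock and 14.11, 14.13 and 14.02 in DEX. Among arrays that touch the results, sid2 mock replicate 2 stood apart: 189 loci were more than 2 log2 units above both other mock arrays and 46 were as far below, against 4 and 4 for replicate 1 and 37 and 6 for replicate 3. The Col mock array of the same replicate number also stood apart, with 178 loci above and 20 below. Outside the sid2 arrays, the array labelled Col DEX replicate 2 had a SID2 level of 6.08, within the range of the sid2 arrays, whereas the other Col DEX arrays had 12.48 and 12.26. Its label and its SID2 level disagree. The fit pools the spread of all 12 arrays, so this array widens the SE of some genes in sid2, and results are given without it where that changes a call. RNA came from whole leaves, in which fewer cells of a type and less RNA per cell cannot be told apart.

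In sid2, 9081 of 32627 loci were called (27.8%), 4241 higher (13%) and 4840 lower (14.8%). Changes were large: 1025 of the called loci rose and 1196 fell by more than 8-fold, and 179 rose and 77 fell by more than 64-fold. Leaving out the doubted Col array gave 4232 higher and 4836 lower, and leaving out all 4 arrays of replicate 2 gave 4163 and 4582. Genes of defence, hormones, growth and metabolism were collected in 28 lists with 652 members on the array, of which 165 (25.3%) were called higher and 194 (29.8%) lower. Both shares were above those of all loci. However, 11242 of the 32627 loci had a mean mock level below 5, against 36 of the 652 list members. The lists were also chosen with earlier results of these data known. The higher shares therefore do not show that these gene classes respond more. The median change was -0.06 over the list members and 0.04 over all loci. The lists differed in direction, as the plot of all list members shows. Counts in single lists below are to be read beside the 13% higher and 14.8% lower of all loci.

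**Figure D1:**
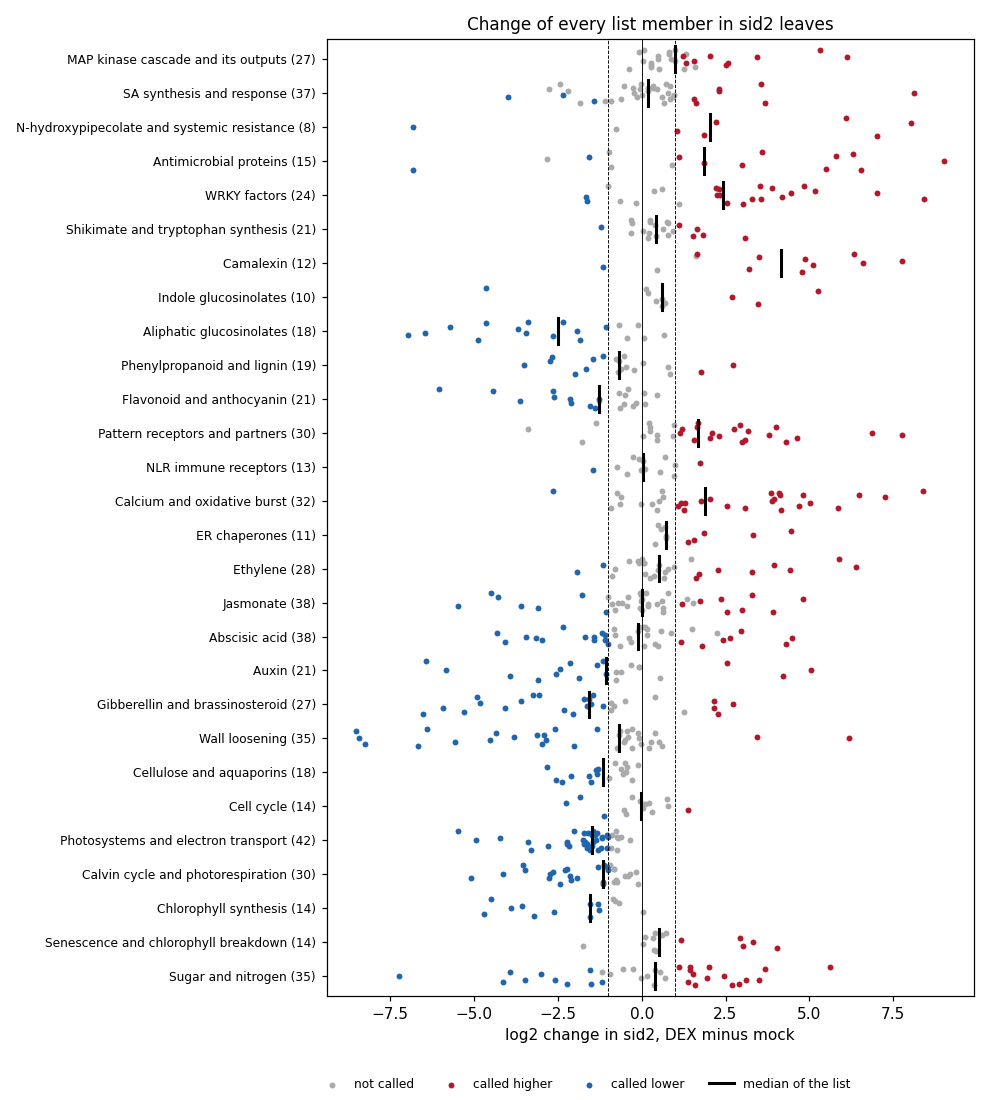
Log2 change of each list member in sid2 (x axis, DEX minus mock), with 1 row per list and the number of members in brackets. Red and blue points were called higher and lower, grey points were not called, black bars are list medians and dashed lines mark 2-fold. Camalexin members lie mostly to the right with a median of 4.15, aliphatic glucosinolate members mostly to the left with a median of -2.51.

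SA genes come first, since SID2 is the gene mutated in this background. The transcript of SID2 itself (AT1G74710) had levels of 6.0, 6.26 and 6.12 in the mock arrays and 6.11, 6.0 and 6.21 in the DEX arrays. The levels were low and overlapped, and the change was -0.02 ± 1.19 (adjusted p 0.991). Most of this SE came from the Col arrays, and it was 0.15 without Col DEX replicate 2. ICS2 (AT1G18870), the second isochorismate synthase gene, fell from 9.75, 10.32 and 9.55 to 5.35, 6.86 and 5.45, a change of -3.98 ± 0.30 (adjusted p 7.28e-07). Thus neither isochorismate synthase transcript was higher with DEX in sid2. Since SID2 is mutated here, its flat level does not show whether the intact gene is induced. In Col, SID2 had 10.36, 9.72 and 10.21 in mock and 12.48, 6.08 and 12.26 in DEX. The 6.08 is that of the array whose label is in doubt. The genes that act on isochorismate downstream split. EDS5 (AT4G39030), its chloroplast exporter, rose from 10.09, 10.79 and 11.02 to 13.02, 12.86 and 12.94 (2.3 ± 0.21, adjusted p 3.15e-06), and PBS3, which conjugates isochorismate to glutamate, rose by 1.62 ± 0.26. EPS1 (AT5G67160), which releases SA from that conjugate, fell from 9.13, 8.61 and 9.82 to 7.24, 6.34 and 6.96 (-2.34 ± 0.31). In all 4 genes, ICS2, EDS5, PBS3 and EPS1, mock and DEX arrays did not overlap, as in 60.6% of all loci (32.3% higher and 28.3% lower with DEX).

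Upstream of SA synthesis, the transcription factor genes SARD1 (AT1G73805) and CBP60G, whose products bind the SID2 promoter, both rose. SARD1 had 9.13, 10.18 and 8.98 in mock and 12.95, 12.96 and 13.07 in DEX, a change of 3.56 ± 0.29 (adjusted p 1.18e-06), and CBP60G changed by 2.31 ± 0.40. PAD4 and EDS1, lipase-like partners in immune signaling, were not called (-0.24 ± 0.29 and 0.33 ± 0.34). The receptor gene NPR1 was at 11.19, 11.40 and 11.03 in mock and 11.16, 11.11 and 11.20 in DEX, with overlapping arrays and a change of -0.05 ± 0.13. Of the 11 genes of SA perception on the array, only NIMIN-3, an NPR1-interacting inhibitor, was called, and it fell by 1.44 ± 0.25. It was not called in a fit to the 6 sid2 arrays alone with the replicate as a block (the sid2-only fit, adjusted p 0.0102).

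The SA response genes did not move together. PR1 (AT2G14610), the classical SA marker, rose from 5.64, 4.60 and 4.91 to 13.04, 13.30 and 13.18 (8.12 ± 0.36, adjusted p 1.06e-08), and PR5 (AT1G75040), a thaumatin-like protein gene, rose from 12.44, 12.55 and 12.25 to 13.96, 13.98 and 13.94 (1.55 ± 0.10). PR2, a glucanase gene of the same set, was not called: its mock levels of 9.64, 10.23 and 9.89 overlapped its DEX levels of 10.39, 9.33 and 8.46. GRX480, a glutaredoxin gene that responds to SA, rose by 3.67 ± 0.51. WRKY70 (AT3G56400), a regulator downstream of NPR1, had 10.87, 11.18 and 10.47 in mock and 8.36, 8.62 and 8.99 in DEX. Its close relative WRKY54 (AT2G40750) had 8.62, 7.91 and 8.35 in mock and 5.66, 6.39 and 5.51 in DEX. Every DEX array was lower than every mock array for both genes. With all arrays they were not called, at -2.19 ± 0.67 (adjusted p 0.0165) and -2.44 ± 0.97 (adjusted p 0.053). Without Col DEX replicate 2 they were called lower, with SEs of 0.24 and 0.28 (adjusted p 2.22e-05 and 3.65e-05). In the sid2-only fit they were also called lower (adjusted p 0.00201 and 0.00307).

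The same held for the genes of SA hydroxylation. DMR6 (AT5G24530), an SA hydroxylase, had 10.28, 10.06 and 10.15 in mock and 7.60, 7.34 and 7.23 in DEX, and DLO1 (AT4G10500), a related SA hydroxylase, had 5.88, 5.64 and 5.95 and 4.13, 3.88 and 3.92. Neither was called with all arrays (-2.77 ± 0.86, adjusted p 0.0175, and -1.84 ± 0.69, adjusted p 0.0417), and both were called lower without Col DEX replicate 2 (adjusted p 8.75e-08 and 0.00654). DLO1 was called lower in the sid2-only fit (adjusted p 3.88e-04) but not without all replicate 2 arrays (adjusted p 0.0461). Its DEX levels lay near the lower quartile of the arrays. NIMIN1, WRKY38 and WRKY62, which depend on SA and NPR1, stayed dim in both groups, with levels between 3.35 and 5.48 and changes of 0.20 ± 0.67, -0.15 ± 0.50 and 0.46 ± 0.52, none called. Over the SA list of 37 genes, 7 were called higher (18.9%) and 3 lower (8.1%), against 13% and 14.8% of all loci. Without Col DEX replicate 2 the counts were 7 and 7. PR1, PR5, SARD1 and CBP60G thus rose in the same leaves in which WRKY70, WRKY54, DMR6 and DLO1 lay lower in every DEX array. DEX arrays lay lower without overlap in 28.3% of all loci, and WRKY70, WRKY54, DMR6 and DLO1 were not called with all arrays.

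**Figure D2:**
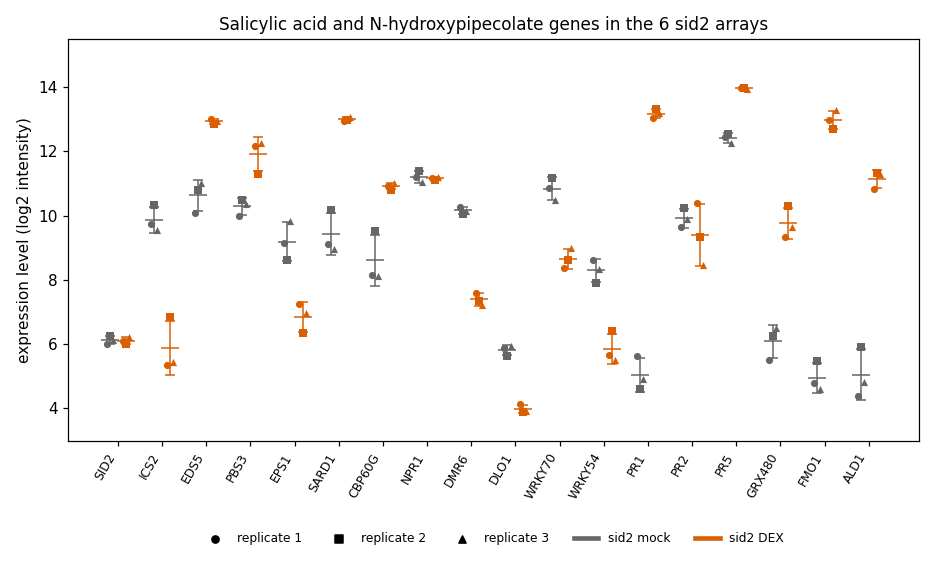
Log2 levels of SA and N-hydroxypipecolate genes (y axis) in the 3 sid2 mock arrays (grey) and the 3 sid2 DEX arrays (orange). Symbols mark replicates, bars the mean ± SD. PR1, FMO1 and ALD1 rise from near 5 in mock to above 10 in every DEX array, while DMR6, DLO1, WRKY70 and WRKY54 lie lower in every DEX array.

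N-hydroxypipecolate is the mobile signal of systemic acquired resistance. All 4 genes of its metabolism in the list were called higher. FMO1 (AT1G19250), whose enzyme makes N-hydroxypipecolate, had 4.79, 5.48 and 4.59 in mock and 12.96, 12.70 and 13.28 in DEX, a change of 8.03 ± 0.35 (adjusted p 1.09e-08). ALD1 (AT2G13810), the aminotransferase at the start of the path, rose by 6.09 ± 0.35, and UGT76B1, which glycosylates N-hydroxypipecolate and SA, rose by 7.02 ± 0.30. AT5G52810, the remaining member, rose by 1.04 ± 0.16, close to the 2-fold limit, and was not called without sid2 mock replicate 1 (0.98) or sid2 DEX replicate 1 (0.93). Of the lipid-transfer genes of systemic resistance, AZI1 and EARLI1 rose by 2.21 ± 0.39 and 1.86 ± 0.19, and DIR1 was not called (-0.78 ± 0.12). PCC1 (AT3G22231), a pathogen- and clock-controlled gene, fell from 11.85, 8.12 and 12.38 to 4.01, 4.14 and 3.72 (-6.83 ± 1.27, adjusted p 7.65e-04). Its sid2 mock replicate 2 was far below the other mock arrays but still above all DEX arrays, and without that array the change was -7.87. It was -7.48 without sid2 DEX replicate 2 and -6.12 without sid2 mock replicate 3.

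Antimicrobial protein genes divided by class. All 8 genes of chitinases and PR proteins were called higher. OSM34 (AT4G11650), an osmotin-like gene, rose from 4.78, 4.55 and 5.29 to 13.83, 13.87 and 13.97 (9.02 ± 0.24, adjusted p 5.82e-10), the largest fitted rise of any list member. The chitinase genes CHIA and CHI rose by 6.54 ± 0.23 and 5.81 ± 0.20, and PR3 and PR4, which are markers of ethylene and jasmonate signaling, by 3.58 ± 0.34 and 2.99 ± 0.46. Among 7 defensins and thionins, PDF1.1 alone rose (6.3 ± 0.44), the thionin genes THI2.2 and THI2.1 fell (-6.82 ± 0.40 and -1.59 ± 0.25), and 4 were not called. THI2.1 was not called in the sid2-only fit (adjusted p 0.0129). PDF1.2A, the standard marker of combined jasmonate and ethylene signaling, had 10.34, 12.60 and 10.57 in mock and 9.64, 10.57 and 10.53 in DEX (-0.92 ± 0.58, adjusted p 0.203). Its highest level was that of sid2 mock replicate 2, and the other mock arrays overlapped the DEX arrays. Near-identical copies such as PDF1.2A and PDF1.2B, and members of the LHCB1 and RBCS families below, can share probe signal, so their values are uncertain as values of single genes.

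The kinase cascade and the genes listed as its outputs were compared next. Of 27 genes, 9 were called higher (33.3%, against 13% of all loci) and none lower at this threshold. At its own locus MKK4 (AT1G51660) rose by 2.03 ± 0.14, a value that does not separate the transgene from the endogenous gene. The transcripts of its substrates MPK3 (0.27 ± 0.18) and MPK6 (0.28 ± 0.08) were not called. MKK2 and MPK11 were the other kinases called, with 1.32 ± 0.10 and 3.43 ± 0.32. FRK1 (6.13 ± 0.47) and the ethylene synthesis gene ACS2 (5.31 ± 0.15) led the outputs, and WRKY33, whose product is an MPK3 and MPK6 substrate, changed by 2.52 ± 0.40. In contrast to these, ERF104, a factor released by MPK6, was not called: its mock levels of 6.95, 10.46 and 7.14 include in replicate 2 a level above all DEX arrays (9.45, 9.82 and 9.08). Without all replicate 2 arrays ERF104 was called higher (2.22, adjusted p 2.72e-04).

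WRKY factors are a transcription factor family prominent in plant defence. Of 24 listed genes 16 rose (66.7%) and 2 fell (8.3%), against 13% and 14.8% of all loci. WRKY75 (AT5G13080) had 4.72, 4.05 and 4.52 in mock and 12.73, 13.05 and 12.77 in DEX (8.42 ± 0.21, adjusted p 3.41e-10). WRKY30 (7.01 ± 0.39), WRKY45 (5.17 ± 0.13) and WRKY28 (2.2 ± 0.28) also rose, the last of these a regulator of SID2. WRKY40 (AT1G80840) showed 7.0, 10.89 and 6.99 in mock and 12.99, 13.26 and 13.13 in DEX (4.84 ± 1.13). The high mock value is that of replicate 2, and without that array the change was 5.89. Without any of the other 4 arrays of replicates 1 and 3, taken singly, WRKY40 was not called, with changes from 4.29 (without sid2 mock replicate 3) and 4.34 (without sid2 mock replicate 1) to 4.59 and 4.70 (without sid2 DEX replicates 3 and 1). WRKY17, a negative regulator of basal defence, fell by 1.67 ± 0.11. WRKY29, an early reporter of flagellin signaling, fell from 6.16, 6.39 and 5.73 to 4.53, 4.83 and 3.98.

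At the cell surface, 19 of 30 genes of pattern receptors, their partners and danger peptides were called higher and none lower. The share called higher was 63.3%, against 13% of all loci. NHL10 (AT2G35980), a flagellin-responsive marker gene, rose from 6.3, 5.95 and 5.46 to 13.60, 13.73 and 13.66 (7.76 ± 0.25, adjusted p 1.48e-09). PROPEP3, which encodes the precursor of a danger peptide, rose by 6.86 ± 0.25, whereas the peptide receptor genes PEPR1 and PEPR2 were not called (0.24 ± 0.12 and 0.46 ± 0.15). The receptor genes RLP30 (4.64 ± 0.11), LYK5 (3.81 ± 0.32) and EFR (2.3 ± 0.20), the co-receptor gene BAK1 (1.56 ± 0.10) and the cytoplasmic kinase gene BIK1 (3.16 ± 0.23) rose. The flagellin receptor gene FLS2 (AT5G46330) did not: it had 8.21, 10.82 and 7.18 in mock and 7.36, 7.89 and 6.89 in DEX, with replicate 2 highest in mock (-1.36 ± 0.80, adjusted p 0.176). The receptor-like kinase genes CRK4 and CRK5 were not called with all arrays. They were called lower without Col DEX replicate 2 (CRK4 -3.38, adjusted p 0.00119, and CRK5 -1.77, adjusted p 1.19e-04) and in the sid2-only fit (adjusted p 0.00512 and 0.00124). Neither was called without sid2 mock replicate 2 (adjusted p 0.0409 and 0.0912). Without all replicate 2 arrays CRK5 was called lower (adjusted p 0.00207) and CRK4 was not (adjusted p 0.0156). CRK4 had 9.65, 8.94 and 6.23 in DEX.

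Of 13 genes for NLR (nucleotide-binding, leucine-rich repeat) receptors and their guardees, RPS4 alone was called higher (1.73 ± 0.26) and RPM1 alone lower (-1.46 ± 0.34), shares below those of all loci, while 11 were not called, among them RPS2 (-0.25 ± 0.60). RPM1 was not called without sid2 mock replicate 2 (-1.30) or without sid2 DEX replicate 2 (-1.31). In calcium and oxidant signaling 21 of 32 genes rose (65.6%, against 13% of all loci). AOX1D (AT1G32350), a mitochondrial alternative oxidase, rose from 4.70, 3.91 and 4.40 to 12.56, 12.76 and 12.84 (8.38 ± 0.22). The glutathione transferase genes GSTU4 and GSTU25 rose by 7.26 ± 0.26 and 6.47 ± 0.27, the peroxidase gene PRX33 by 5.87 ± 0.32 and the NADPH oxidase gene RBOHD, which drives the oxidative burst, by 1.26 ± 0.08. CNGC2, a calcium channel gene, was the single member called lower, at 13.03, 13.07 and 13.21 in mock and 10.70, 10.71 and 9.93 in DEX. Of 11 chaperone genes of the endoplasmic reticulum, 5 rose (45.5%). BIP3, a stress-induced BiP, changed by 4.46 ± 0.35 and BZIP60, the factor of the unfolded protein response, by 1.87 ± 0.10. ATERDJ3A, a co-chaperone gene, rose by 3.33 ± 0.14. BIP1 and BIP2 were not called (0.48 ± 0.11 and 0.74 ± 0.14).

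Tryptophan is the precursor of camalexin and of indole glucosinolates, and its own synthesis starts from chorismate, as SA synthesis does. Of 13 shikimate genes, which lead to chorismate and on to phenylalanine, none rose and only the chorismate mutase gene CM1 fell (-1.22 ± 0.22). From chorismate to tryptophan, 5 of 8 genes rose and none fell. ASB1 (AT1G25220), a subunit of anthranilate synthase, rose from 10.17, 9.99 and 10.64 to 13.26, 13.39 and 13.41 (3.09 ± 0.15, adjusted p 2.62e-08), and ASA1, the other subunit, by 1.11 ± 0.09. TSB2 and TSA1, tryptophan synthase subunits, rose by 1.82 ± 0.25 and 1.66 ± 0.10. Of 12 camalexin genes, 9 rose (75%, against 13% of all loci). CYP71A13 (AT2G30770) had 9.83, 8.91 and 8.90 in mock and 13.95, 14.07 and 14.01 in DEX (4.79 ± 0.42), and PAD3 (AT3G26830), the last enzyme, had 10.54, 6.74 and 9.5 in mock and 13.93, 14.03 and 14.14 in DEX (5.11 ± 0.81). In mock PAD3 was lowest in replicate 2, and its change was 4.06 without that array and 6.01 without sid2 mock replicate 1. The regulator genes MYB122 (7.77 ± 0.23) and NAC042 (6.33 ± 0.18) rose with them, as did AT1G26380 (6.62 ± 0.45, and 7.21 without sid2 mock replicate 1).

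CYP79B2 (AT4G39950) and CYP79B3 (AT2G22330) encode enzymes of the same step, from tryptophan to indole-3-acetaldoxime, and their transcripts went opposite ways. CYP79B2 rose from 12.04, 11.29 and 12.83 to 13.66, 13.78 and 13.63 (1.64 ± 0.29), whereas CYP79B3 fell from 13.10, 12.94 and 13.46 to 12.08, 11.68 and 12.31 (-1.15 ± 0.16). In the sid2-only fit CYP79B2 was not called (adjusted p 0.0135), and without sid2 DEX replicate 2 CYP79B3 was just under the 2-fold limit (-0.99). A split was also seen in the indole glucosinolate regulators and modifiers. MYB34 (AT5G60890) fell from 10.15, 8.93 and 10.09 to 5.22, 5.13 and 4.86 (-4.66 ± 0.32), while MYB51, listed with camalexin, rose by 3.20 ± 0.41. CYP81F2, which hydroxylates indole glucosinolates for the PEN2 defence, rose by 5.25 ± 0.36, and the methyltransferase genes IGMT1 and IGMT2 rose by 3.46 ± 0.29 and 2.69 ± 0.27. The core enzymes CYP83B1, SUR1, UGT74B1 and SOT16 were not called, with changes from 0.20 to 0.62.

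Aliphatic glucosinolates, made from methionine, act mainly against herbivores. Of the 18 genes listed for them 13 fell (72.2%, against 14.8% of all loci) and none rose. MYB29 (AT5G07690), a regulator, fell from 12.23, 12.38 and 12.30 to 4.37, 6.05 and 5.53 (-6.99 ± 0.41, adjusted p 9.60e-08). The regulators MYB28 and MYB76 fell with it (-3.38 ± 0.26 and -5.73 ± 0.32). The side-chain enzyme AOP2 (AT4G03060) fell from 12.97, 13.06 and 13.10 to 5.95, 7.14 and 6.63 (-6.47 ± 0.46), and CYP79F1, CYP83A1 and MAM1 changed by -4.66 ± 0.52, -3.68 ± 0.54 and -3.45 ± 0.36. The myrosinase genes TGG1 and TGG2, whose enzymes hydrolyse glucosinolates, were not called (-0.11 ± 0.10 and 0.06 ± 0.11). CYP83A1 and CYP83B1, parallel enzymes of the aliphatic and the indole path, thus had changes of -3.68 and 0.44.

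**Figure D3:**
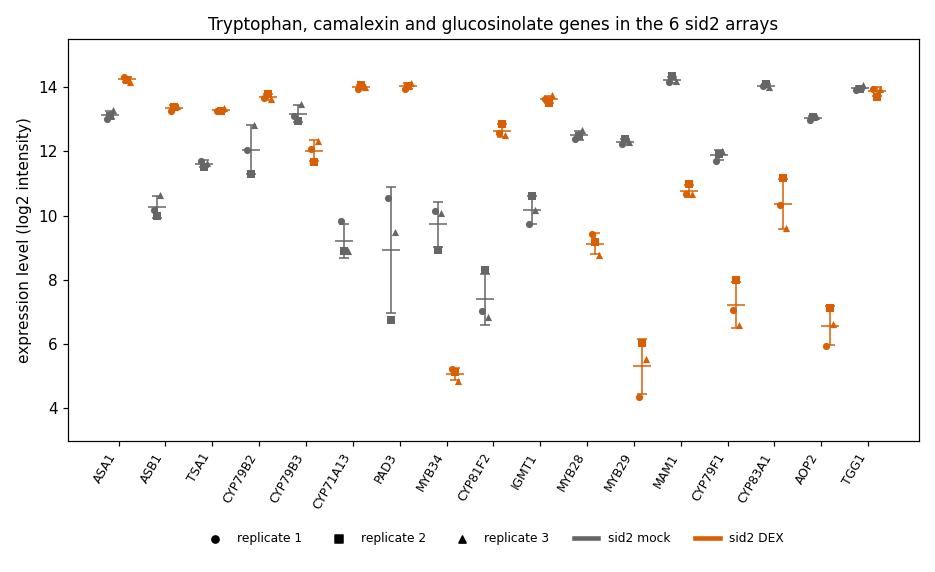
Log2 levels (y axis) of tryptophan, camalexin and glucosinolate genes in the sid2 mock arrays (grey) and sid2 DEX arrays (orange), with symbols for replicates and bars for the mean ± SD. Genes from ASA1 to PAD3 rise apart from CYP79B3, MYB34 falls while CYP81F2 and IGMT1 rise, and genes from MYB28 to AOP2 fall, with MYB29 and AOP2 going from above 12 to below 7.2. TGG1 stays near 14 in all 6 arrays.

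Phenylpropanoids, which include lignin precursors, flavonoids and a second route to SA through phenylalanine ammonia lyase, were lower at their entry. The ammonia lyase genes PAL1 (AT2G37040), PAL2, PAL3 and PAL4 fell by 1.14 ± 0.23, 1.67 ± 0.13, 2.75 ± 0.27 and 1.98 ± 0.38. PAL1 had 12.53, 11.97 and 12.80 in mock and 11.41, 11.53 and 10.93 in DEX, without overlap. PAL1 and PAL4 were not called in the sid2-only fit (adjusted p 0.0267 and 0.0159), and PAL1 was under the 2-fold limit without sid2 mock replicate 3 (-0.91) or sid2 DEX replicate 3 (-0.96). The ligase genes 4CL3 and 4CL5, of the same entry path, fell by 3.51 ± 0.66 and 2.67 ± 0.24, and 4CL3 changed by -4.23 without sid2 mock replicate 2. Of 10 lignin genes 2 rose, CAD5 (1.75 ± 0.13) and ELI3-2 (2.71 ± 0.35), both alcohol dehydrogenase genes of the cinnamyl type, and CAD4 fell (-1.44 ± 0.21). These shares, 20% higher and 10% lower, were near those of all loci (13% and 14.8%). Of 21 flavonoid genes 10 fell (47.6%, against 14.8% of all loci) and none rose. The regulator gene GL3 (-1.28) was not called without Col DEX replicate 2 (adjusted p 0.0115) or in the sid2-only fit (adjusted p 0.046). In each of these fits 9 flavonoid genes were called lower. CHS (AT5G13930), chalcone synthase, fell from 14.03, 12.99 and 13.82 to 7.97, 7.76 and 6.98 (-6.04 ± 0.34), UGT78D1 by 4.43 ± 0.42 and the flavonol synthase gene FLS1 by 3.64 ± 0.64. Without sid2 mock replicate 2 FLS1 changed by -4.37. The regulator genes MYB12 and MYB111 were not called.

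Ethylene, jasmonate and abscisic acid (ABA) genes showed mixed directions. For ethylene, the synthesis genes ACS8 (2.29 ± 0.40) and ACO4 (1.70 ± 0.10) rose, ACS4 and ACS5 fell (-1.93 ± 0.31 and -1.14 ± 0.29), and 10 of 11 signaling genes, EIN2 and EIN3 among them, were not called. The response factors rose in 5 of 7 cases. ERF1 (AT3G23240) had 5.15, 5.52 and 5.56 in mock and 11.78, 11.72 and 11.94 in DEX (6.40 ± 0.35, adjusted p 5.33e-08), and ORA59 (AT1G06160), which joins jasmonate and ethylene signals, changed by 5.88 ± 0.52 and ERF5 by 4.43 ± 0.90 (5.13 without sid2 mock replicate 2). These factors act on PDF1.2A, which was not called. ERF6 was at 6.70, 9.93 and 6.51 in mock and 7.66, 8.13 and 7.56 in DEX, again with replicate 2 the highest mock array. Without all replicate 2 arrays ERF6 was called higher (1.0) and ACS8 was not called (adjusted p 0.0138). ACS5 was not called without the mock array (-1.22) or the DEX array (-1.13) of sid2 replicate 1, nor without those of replicate 2 (-0.88 and -0.92).

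Of 38 jasmonate genes 8 rose (21.1%) and 7 fell (18.4%), not far from the shares of all loci (13% and 14.8%). Synthesis genes were mostly not called (10 of 13), including LOX2 (-0.06 ± 0.10) and AOS (-0.90 ± 0.24), which was called lower without sid2 mock replicate 1 (-1.13) or sid2 DEX replicate 1 (-1.12), although LOX4 rose by 2.37 ± 0.30. Among the JAZ repressor genes, JAZ10 (AT5G13220) rose from 7.71, 7.64 and 10.09 to 11.74, 12.08 and 11.51 (3.3 ± 0.53), JAZ8, JAZ5 and JAZ1 rose by 2.98 ± 0.59, 2.54 ± 0.34 and 1.73 ± 0.35, and JAZ3 fell by 3.6 ± 0.20. JAZ10 was not called in the sid2-only fit (adjusted p 0.0104), and its change was 4.09 without sid2 mock replicate 3. The vegetative storage protein genes VSP1 and VSP2, which respond to jasmonate, both fell. VSP2 (AT5G24770) had 10.39, 9.96 and 12.39 in mock and 5.66, 4.96 and 5.71 in DEX (-5.47 ± 0.85), and VSP1 changed by -4.50 ± 0.72. Mock replicate 3 was highest for VSP2, and without it the changes were -4.88 (VSP2) and -3.88 (VSP1). MYC2 itself was not called (-0.59 ± 0.24), while MYC4 fell by 3.11 ± 0.16. JMT, which makes methyl jasmonate, fell from 11.21, 11 and 12.26 to 6.03, 7.10 and 8.49. CYP94B3, which inactivates jasmonoyl-isoleucine, rose by 4.80 ± 0.89 (5.59 without sid2 mock replicate 2), and the NAC factor gene NAC055 by 3.91 ± 0.64 (4.58 without sid2 mock replicate 2).

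Of 38 ABA genes 7 rose (18.4%) and 13 fell (34.2%), against 13% and 14.8% of all loci. The synthesis gene NCED3 was not called (0.03 ± 0.19), while the breakdown genes diverged: CYP707A1 (AT4G19230) rose from 7.68, 7.90 and 7.95 to 11.88, 12.23 and 12.33 (4.3 ± 0.17) and CYP707A4 (AT3G19270) fell from 9.71, 9.60 and 9.30 to 5.43, 5.35 and 5.58 (-4.08 ± 0.17), as did CYP707A2 (-3.45 ± 0.29). AHG1, a phosphatase gene of ABA signaling, changed by 2.95 ± 0.21. Among the 9 receptor genes PYL6 rose by 4.48 ± 0.49, PYL5 by 1.80 ± 0.41 and 4 fell, PYL9 by 1.69 ± 0.09. Of 9 response genes 5 fell and none rose. RAB18 (AT5G66400) had 11.97, 11.48 and 12.34 in mock and 7.61, 7.34 and 7.93 in DEX (-4.3 ± 0.31), and COR15A, RD22 and RD29B changed by -3.15 ± 0.47, -2.97 ± 0.25 and -2.34 ± 0.39. HAI1, a phosphatase gene induced by ABA, was not called (2.26 ± 0.81, adjusted p 0.0339), although its mock and DEX arrays did not overlap.

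Growth hormone genes were mostly lower. Of 9 auxin-responsive Aux/IAA genes, whose products repress auxin signaling, 7 fell and none rose. IAA17 (AT1G04250) fell from 12.53, 11.78 and 12.63 to 6.94, 5.37 and 5.30 (-6.44 ± 0.53) and IAA3 (AT1G04240) from 11.96, 11.65 and 12.13 to 6.04, 5.90 and 6.24 (-5.85 ± 0.14, adjusted p 3.41e-10). IAA7 and IAA19 fell by 3.92 ± 0.28 and 1.06 ± 0.13, and IAA19 was just under the 2-fold limit without sid2 mock replicate 3 (-0.99). The receptor gene AFB1 and the influx carrier gene AUX1 fell by 2.56 ± 0.19 and 3.11 ± 0.12. The only auxin genes listed that rose were the 3 GH3 genes, whose enzymes conjugate auxin to amino acids: GH3.3 (AT2G23170) had 6.01, 6.34 and 6.75 in mock and 11.81, 11.37 and 11.04 in DEX (5.04 ± 0.28), and GH3.6 and GH3.5 changed by 4.22 ± 0.19 and 2.53 ± 0.27.

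Of 18 gibberellin genes 4 rose (22.2%) and 10 fell (55.6%), against 13% and 14.8% of all loci. GA20OX1 and GA3OX1, which make active gibberellin, fell by 4.92 ± 0.17 and 4.83 ± 0.40. GA2OX6 and GA2OX2, which inactivate it, rose by 2.27 ± 0.43 and 2.17 ± 0.36, but their relative GA2OX1 fell by 4.08 ± 0.44. The DELLA repressor gene RGL3 (AT5G17490) rose from 7.09, 7.42 and 8.34 to 10.55, 9.85 and 10.60 (2.71 ± 0.29), whereas the other DELLA genes GAI, RGA and RGL1 fell (-2.04 ± 0.15, -1.63 ± 0.19 and -1.72 ± 0.27). RGL2 was not called. GASA6, a gibberellin-regulated peptide gene, fell by 5.30 ± 0.50, and changed by -5.97 without sid2 DEX replicate 2. Of 9 brassinosteroid genes 7 fell and none rose. PRE1 (AT5G39860), a growth-promoting helix-loop-helix gene, fell from 10.56, 10.20 and 10.81 to 4.22, 3.79 and 3.97 (-6.53 ± 0.14, adjusted p 2.54e-10), and the synthesis genes BR6OX2 and CPD changed by -5.93 ± 0.24 and -3.24 ± 0.15. BAS1, which inactivates brassinosteroids, also fell (-3.61 ± 0.21).

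Cell wall genes fell from high levels. XTH7 (AT4G37800), a xyloglucan endotransglucosylase, had 13.08, 13.16 and 13.16 in mock and 4.1, 4.14 and 5.61 in DEX (-8.52 ± 0.37, adjusted p 1.08e-08), and XTH6 (AT5G65730) had 12.40, 12.23 and 12.76 in mock and 3.82, 3.55 and 4.73 in DEX (-8.43 ± 0.29). The expansin gene EXPA11 (AT1G20190), whose product loosens walls, fell from 13.09, 13.04 and 12.98 to 4.2, 5.59 and 4.59 (-8.25 ± 0.26). The DEX levels of these 3 genes lay near the lower quartile of the arrays, so the order of their changes was not determined. Of 16 expansins 9 fell (56.25%, against 14.8% of all loci) and none rose, and EXPA1 changed by -2.59 ± 0.14. Of 19 XTH genes 7 fell (36.8%), 2 rose (10.5%, against 13% of all loci) and 10 were not called. The 2 that rose were XTH23 (AT4G25810), from 7.54, 7.94 and 7.41 to 13.84, 13.66 and 13.92 (6.18 ± 0.20), and XTH30, by 3.45 ± 0.25. XTH4 and XTH22, a touch-induced gene, were not called (-0.12 ± 0.23 and 0.61 ± 0.65). Of 8 aquaporin genes 7 fell, from -2.82 (DELTA-TIP), -2.56 (TIP2;2) and -2.38 (PIP2E) to -1.32 (PIP2B). Of 10 cellulose genes 2 fell (20%, near the 14.8% of all loci), CESA2 (-1.56 ± 0.23) and CESA5 (-1.51 ± 0.15). The cell cycle list showed few calls, 7.1% of its 14 genes higher and 21.4% lower, near the shares of all loci (13% and 14.8%). CYCB1;1, a mitotic cyclin, was not called (0.20 ± 0.16). The G1 cyclin CYCD2;1 was higher (1.38 ± 0.09), and CYCA1;1 (-1.12 ± 0.11) and the inhibitor genes KRP2 and SMR1 lower (-1.84 ± 0.16 and -2.25 ± 0.18).

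Markers of the epidermis moved with the wall genes. ATML1 (AT4G21750), the epidermal identity factor, fell from 12.36, 11.88 and 11.78 to 8.51, 8.28 and 8.02 (-3.74 ± 0.15), FDH by 3.34 ± 0.42 and the trichome gene GL2 by 2.48 ± 0.15, 3 of 4 in that class. The class's summed intensity was 13954 to 16074 in mock and 936 to 2208 in DEX. Of 5 guard cell markers 3 fell (sum 6241 to 8089 in mock and 3434 to 3874 in DEX), and of 4 phloem markers none was called (30591 to 34565 and 29660 to 32667). The part of the epidermal and guard cell markers in the wall, hormone and metabolic results was not tested. The root marker PYK10 was at 7.64, 7.57 and 6.56 in mock and 3.93, 3.93 and 3.87 in DEX. Root markers and markers of flower, pollen and seed had sums of at most 290 and 991, and 8 of these 10 were below a mean log2 level of 5 in DEX. In mock, the pollen gene VGD1 was at 4.35, 9.58 and 4.02, high in replicate 2 alone.

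**Figure D4:**
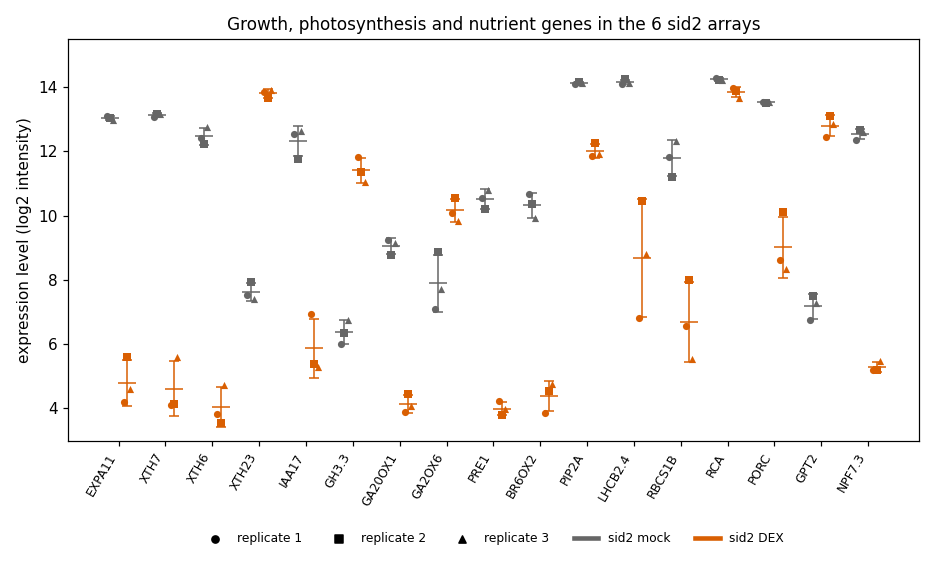
Log2 levels (y axis) of growth, photosynthesis and nutrient genes in the sid2 mock arrays (grey) and sid2 DEX arrays (orange), with symbols for replicates and bars for the mean ± SD. EXPA11, XTH7 and XTH6 drop from above 12 to below 5.7 in every DEX array, while XTH23, GH3.3, GA2OX6 and GPT2 lie above mock in every DEX array.

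Genes of photosynthesis fell in most cases, by unequal amounts. Of 42 photosystem and electron transport genes 34 fell (81%, against 14.8% of all loci) and none rose, with a median of -1.47. Of 30 Calvin cycle and photorespiration genes 19 fell (63.3%) and none rose, with a median of -1.16. LHCB2.4 (AT3G27690), a light-harvesting protein gene, fell from 14.11, 14.24 and 14.13 to 6.80, 10.45 and 8.80 (-5.47 ± 0.62), LHCB2.2 by 4.23 ± 0.36 and LHCB1.4 by 4.96 ± 0.42, but LHCB4.1 and LHCB1.2 were under the 2-fold limit (-0.62 ± 0.14 and -0.90 ± 0.14). The DEX arrays of LHCB2.4 spread widely, with changes of -4.52 without replicate 1 and -6.35 without replicate 2 of sid2 DEX. The small subunit genes of Rubisco ranged from -5.09 ± 0.59 (RBCS1B) to -0.95 ± 0.14 (RBCS1A, not called). The RBCS1B change was -5.85 without sid2 DEX replicate 2 and -4.48 without sid2 DEX replicate 3. RBCS1A was at the 2-fold limit, and was called lower without sid2 mock replicate 1 or without sid2 DEX replicate 1 (-1.0 in both). Rubisco activase, RCA, had 14.30, 14.22 and 14.21 in mock and 13.96, 13.89 and 13.67 in DEX, a change under the 2-fold limit (-0.40 ± 0.11). The highest level in any locus was between 14.49 and 15.06 in the sid2 arrays. Genes near 14, such as RCA, TGG1 and ACT2, thus lay close to the top of the scale. Whether changes were compressed there was not tested. SBPASE and GAPA-2 of the Calvin cycle fell by 3.55 ± 0.37 and 4.13 ± 0.39. By pair, the median change of the photosystem list was -1.18, -1.29 and -1.95 in replicates 1, 2 and 3.

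Chlorophyll synthesis genes fell in 10 of 14 cases. PORC (AT1G03630), a protochlorophyllide reductase, fell from 13.55, 13.50 and 13.53 to 8.61, 10.10 and 8.34 (-4.51 ± 0.38), its relatives PORA and PORB changed by -4.69 ± 0.35 and -3.58 ± 0.24, and CHLM by -3.89 ± 0.19. HEMA1, at the start of the path, was under the 2-fold limit (-0.85 ± 0.08). Breakdown genes of chlorophyll were mostly not called: PAO was at 0.03 ± 0.10 and NYE1 at 0.39 ± 0.10, while NYE2 (AT4G11910) rose from 5.84, 6.69 and 6.41 to 9.08, 9.40 and 9.56 (3.04 ± 0.27). Among senescence genes SAG13 rose by 3.32 ± 0.15, whereas SAG12, the usual marker of late senescence, stayed dim at 3.76, 4.09 and 3.59 in mock and 3.90, 4.44 and 4.16 in DEX. ORE1, a senescence regulator, had 4.77, 9.21 and 4.63 in mock and 10.36, 10.15 and 10.23 in DEX (4.04 ± 1.05). Mock replicate 2 was close to the DEX level, and without it the ORE1 change was 5.40. The call was lost without any single sid2 array of replicates 1 and 3, with changes of 3.41 and 3.81 (without mock and DEX replicate 1) and 3.32 and 3.83 (without mock and DEX replicate 3), and in the sid2-only fit (adjusted p 0.0263).

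In sugar and nitrogen metabolism, 15 of 35 genes rose (42.9%) and 10 fell (28.6%), against 13% and 14.8% of all loci. GPT2 (AT1G61800), which imports glucose phosphate into plastids, rose from 6.75, 7.51 and 7.27 to 12.46, 13.09 and 12.84 (5.62 ± 0.35), and the hexose carrier gene STP13, the sucrose synthase gene SUS3 and the cell wall invertase gene ATBFRUCT1 rose by 2.89 ± 0.36, 3.49 ± 0.18 and 2.68 ± 0.14. The sucrose exporter gene SWEET12 fell by 4.13 ± 0.54, and the starch genes GBSS1 and APL3 by 3.93 ± 0.65 and 2.58 ± 0.24, with a GBSS1 change of -4.76 without sid2 DEX replicate 2. Of the related nitrate transporter genes NPF7.3 (AT1G32450) fell from 12.36, 12.66 and 12.60 to 5.2, 5.2 and 5.46 (-7.25 ± 0.43, adjusted p 1.02e-07), whereas NPF7.2 (AT4G21680) rose from 4.24, 4.84 and 4.98 to 8.01, 8.60 and 8.47 (3.68 ± 0.21). Glutamine synthetase genes split in the same way: GSR 1 and GLN1.3 rose by 1.38 ± 0.29 and 1.45 ± 0.13, and GLN1;4 fell by 3.47 ± 0.26. P5CS1, of proline synthesis, fell by 3.01 ± 0.12, and the glutamate dehydrogenase gene GDH2 rose by 1.59 ± 0.40, a call lost in the sid2-only fit (adjusted p 0.0387) and without sid2 DEX replicate 1 (1.62) or sid2 DEX replicate 2 (1.38). Without sid2 mock replicate 2 the GDH2 change was 1.0.

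Over all loci, with the same sign in all 3 pairs and a level of at least 8 in the higher group, the 10 largest rises ran from 8.18 (PHT3;2, a mitochondrial phosphate carrier) to 9.37 (AT4G28940). AT4G28940 had 3.78, 3.37 and 3.67 in mock and 12.55, 13.26 and 13.12 in DEX. The others with a symbol were OSM34, WRKY75 and AOX1D, described above, CYP710A1 (8.89 ± 0.15), which makes the sterol stigmasterol, and NHL25 (8.87 ± 0.26), of the NDR1 and HIN1-like family. AT3G48950, AT5G44990 and AT5G55980 completed this set, at 8.35, 8.29 and 8.18. The 10 largest falls ran from -7.36 (PBP1) to -8.52 (XTH7). They included XTH6, EXPA11 and 6 loci without a symbol in the reference table: AT3G16370 (-8.08), AT1G29660 (-7.96), AT5G55620 (-7.77), AT2G44230 (-7.66), AT3G55240 (-7.56) and AT1G13650 (-7.51). These 20 loci were chosen by the size of their change, and where the lower group lies near the dim end of the arrays their order was not determined.

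Whether the response in sid2 differed from that in Col was tested as the difference of the DEX effects (sid2 minus Col). In Col alone 28.7% of loci were called, 13.8% higher and 15% lower. In limma's test no locus was called (0%), and 734 had an unadjusted p under 0.05. The 5 list members with the smallest p were PR1, EXPA2, RLP23, CRA1 and HAI3, and their adjusted p was 0.225 for PR1 and 1 for the others. PR1 started from 5.64, 4.60 and 4.91 in sid2 mock and from 8.55, 9.93 and 9.78 in Col mock, and reached 13.04 to 13.96 in all DEX arrays of both backgrounds. Its difference was 3.86 ± 0.50, with mock levels far apart and DEX levels close. The array labelled Col DEX replicate 2 bears on this test directly. Without it 952 loci had an unadjusted p under 0.05 and 3 were called: DMR6 (-2.67 ± 0.20, adjusted p 0.00552), ARD3 (-3.23 ± 0.28, adjusted p 0.00605), an acireductone dioxygenase gene of methionine salvage, and AT5G41280 (-1.57 ± 0.14, adjusted p 0.00605).

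Without that array WRKY70 and WRKY54 differed by -3.36 ± 0.36 and -3.80 ± 0.43, with adjusted p of 0.0152 and 0.0195, above the threshold. WRKY70 was at 12.47 and 12.54 in Col DEX replicates 1 and 3, against 11.23, 11.93 and 11.03 in Col mock, so that it lay higher with DEX in those Col arrays and lower with DEX in all sid2 arrays. In Col DEX replicate 2 it was at 9.36. DMR6 was at 11.57 and 11.11 in those Col DEX arrays, at 6.79 in replicate 2, and between 7.23 and 7.60 in sid2 DEX. ERF1, in contrast, lay between 11.72 and 12.07 in all DEX arrays of both backgrounds.

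**Figure D5:**
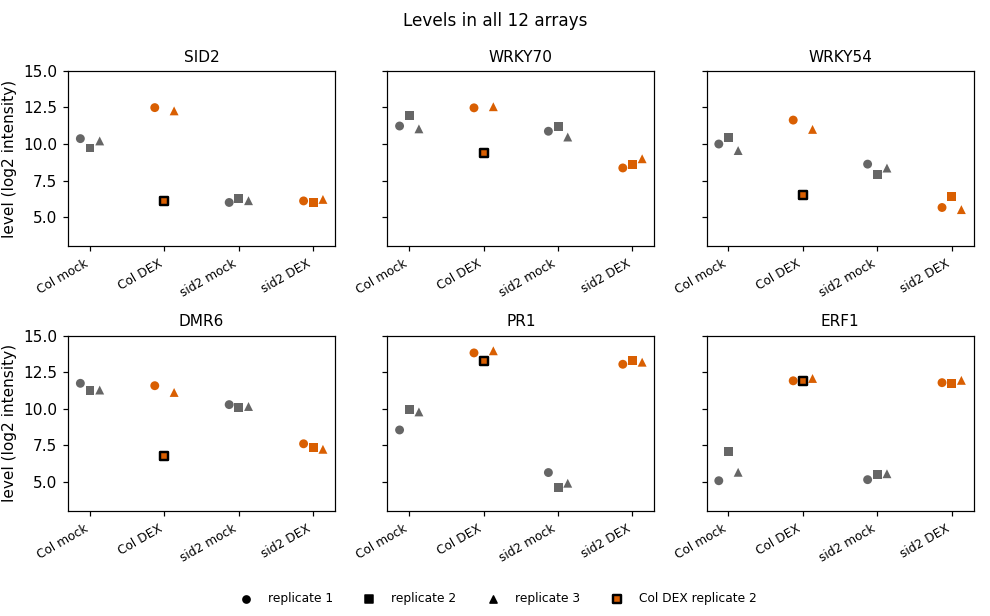
Log2 levels (y axis) of 6 genes in all 12 arrays by background and treatment, with grey for mock, orange for DEX and symbols for replicates. The framed square is the array labelled Col DEX replicate 2, which lies near the sid2 DEX arrays for SID2, WRKY70, WRKY54 and DMR6 and with all DEX arrays for PR1 and ERF1.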

How the data were processed

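Total RNA from leaves was hybridised with Cy3 label to NimbleGen 12x135K arrays designed on TAIR9.0, with 1 array per sample. The authors normalized the scans with RMA and deposited a linear intensity for each of 32627 loci, taking the transcript with the higher value where a locus had several. No background or detection value was used here, and precision is limited by there being 3 arrays per group. The deposited intensities were put on the log2 scale without further normalization or filter. Intensities of different loci come from different probes, so levels were not compared between genes. All columns were assigned to a sample by its title.

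The groups and the random replicate factor followed the study's methods. The adjustment and the size limit did not: the study used Storey's q-values and, for this comparison, a 4-fold limit. limma 3.58.1 with statmod 1.5.0 in R 4.3.3 fitted the 4 genotype and treatment groups to all 12 arrays, with the replicate number as a random block (duplicateCorrelation, consensus correlation 0.208). P-values were adjusted by Benjamini-Hochberg over all loci, and loci were called at an adjusted p under 0.01 and a change of more than 2-fold. The replicate number was taken to mark the experiment. Deviations of same-numbered mock and DEX arrays from their group means had r of 0.215, 0.100 and 0.127 across loci. P-values set each change against the residual spread of single arrays around their group means. That spread was pooled over all 12 arrays, Col included, with the block correlation, and was moderated across loci. The script was tested on simulated data.

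The gene lists (688 loci, 686 on the array) and the comparison were chosen with earlier results of these data known, so the counts are descriptions. NIMIN2 and HSFB1 had no locus on the array. The text names anchor genes of each list, the 3 called members with the largest rise and fall in each list with the same sign in all 3 pairs, the 10 largest rises and falls over all loci with a level of at least 8 in the higher group, and for the difference between backgrounds the called genes or the 5 list members with the smallest p. Further called members of the same families, such as the JAZ, DELLA, PAL and glutamine synthetase genes, were named after their values were seen. Symbols came from the RefSeq annotation of TAIR10.1, which matched 31993 loci (98.1%), and no coordinates were used. Promoter motifs, which had been planned, were not analysed here.

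Alternatives were fits without the block or to the sid2 arrays alone, leaving out arrays, other call limits, limma's treat, other scalings, an offset of 50, a minimum mean level of 6, an intensity trend and array weights. Figures were drawn with matplotlib 3.10.9.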

Additional observations from a re-analysis of the deposited data

Results flagged for a closer look

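In 3 genes the DEX effects differed between sid2 and Col by the test of the difference itself, but only when the array labelled Col DEX replicate 2 was left out. ARD3 changed by 0.47 in sid2 and by 3.69 in Col, a difference of -3.23 (adjusted p 0.00605). DMR6 changed by -2.77 in sid2 and by -0.11 in Col, a difference of -2.67 (adjusted p 0.00552). AT5G41280 changed by 0.14 in sid2 and by 1.71 in Col, a difference of -1.57 (adjusted p 0.00605). With all 12 arrays the differences were -1.60, -1.17 and -0.91, each with an adjusted p of 1. The array was doubted because of its SID2 level, and the test without it rests on 2 Col DEX arrays. Groups of 3 arrays are too small for a test of single outlying arrays.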

How the results depend on the processing

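The 9081 calls depended mainly on the size limit. With a 4-fold limit 4303 loci were called (1847 higher and 2456 lower), and with limma's treat against a 2-fold change 5091 (2234 and 2857). Over the lists, 110 and 114 members were then called lower in place of 194. Other alternatives gave between 7565 (an offset of 50) and 9315 (adjusted p under 0.05) calls, and leaving out single sid2 arrays gave 8672 to 9130. No locus called both with these settings and under one of the 19 alternatives changed sign. Without the replicate block 8809 loci were called, all among the 9081. With the replicate as a fixed block in the sid2 arrays alone 8733 were called, of which 8656 (95.3% of the 9081) were shared.

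The count of loci whose DEX effect differed between backgrounds was 0 with all arrays and 3 without the array labelled Col DEX replicate 2, with 0 to 3 over the leave-one-out settings. Of 191 single genes followed, 27 lost their call at the 4-fold limit and 27 under treat, 8 lost it and 4 gained it in the fit with the replicate block to the sid2 arrays alone, and 4 gained it without Col DEX replicate 2. Dim loci limit the folds: an offset of 50 shrank changes of loci near the lower end of the scale and lost 5 of these genes.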
